A study of Mus musculus with 6 samples.

Results

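The Cyp3a cytochromes P450 of mouse liver were followed across a diet comparison. The set was chosen by gene name and held 7 of the 23474 genes of the table: Cyp3a11, Cyp3a13, Cyp3a16, Cyp3a25, Cyp3a41a, Cyp3a44 and Cyp3a59. The table also lists Cyp3a41b and Cyp3a57, which brings the Cyp3a genes to 9. The BT diet was a high-fat diet with 1.5% (w/w) Bangpungtongseong-san extract, a herbal medicine, and the control was the high-fat diet without extract (HFD). All animals were male C57BL/6J mice that started the diets at 5 weeks of age, were fed for 12 weeks and were 17 weeks old at sampling. The study had 20 mice, 10 per diet, and no group on a normal diet is among the libraries. There were 3 BT and 3 HFD libraries of liver mRNA. Whether each library holds RNA of 1 animal or of several is not stated, so p-values here measure only the spread between libraries, which may be technical. Expression is given as FPKM, which divides the fragments of a gene by the length of its transcript and the size of the library, so that levels of different genes can be compared.

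Cyp3a enzymes sit in the membrane of the endoplasmic reticulum and oxidize steroids, bile acids and a large share of drugs and plant compounds. In the liver their transcription is controlled by the xenobiotic receptors PXR (Nr1i2) and CAR (Nr1i3), which pair with RXR and respond to foreign chemicals, and their catalysis needs electrons from the reductase Por. Cyp3a11 is the main Cyp3a enzyme of adult mouse liver and a classic PXR target, whereas Cyp3a41a and Cyp3a44 are known as female-predominant in mouse liver and Cyp3a16 as a gene of fetal and newborn liver.

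The sequences set the limits of what short fragments can tell apart. The first 75 coding bases of 7 of the genes are shown 5′ to 3′ from the start codon, from GENCODE M21 transcripts, to show how close the copies are. Capitals mark bases that differ from Cyp3a11 at the same position.
Cyp3a13: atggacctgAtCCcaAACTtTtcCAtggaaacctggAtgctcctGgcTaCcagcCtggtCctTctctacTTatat
Cyp3a25: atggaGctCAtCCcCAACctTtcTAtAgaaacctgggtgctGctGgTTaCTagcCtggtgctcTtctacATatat
Cyp3a59: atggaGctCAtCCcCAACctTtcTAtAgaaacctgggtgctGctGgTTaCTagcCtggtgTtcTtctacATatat
Cyp3a11: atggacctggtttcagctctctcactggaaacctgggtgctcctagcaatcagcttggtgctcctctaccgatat
Cyp3a41a: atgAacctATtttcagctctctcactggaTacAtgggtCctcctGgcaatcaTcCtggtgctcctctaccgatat
Cyp3a41b: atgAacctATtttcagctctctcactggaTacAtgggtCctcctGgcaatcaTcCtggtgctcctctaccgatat
Cyp3a44: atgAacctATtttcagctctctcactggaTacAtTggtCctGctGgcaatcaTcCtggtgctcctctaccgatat
Over these bases Cyp3a13 differs from Cyp3a11 at 19 positions, Cyp3a25 at 23 and Cyp3a59 at 24, while Cyp3a41a and Cyp3a41b differ from it at the same 9 positions and are identical to each other.

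Over the whole coding sequence the genes fell into close sets. Cyp3a25 and Cyp3a59 were identical at 97.49% of aligned bases, with 38 mismatches, and Cyp3a57 was 93.92% identical to Cyp3a25. Cyp3a11 was 92.81% identical to Cyp3a16, 95.18% to Cyp3a41a and 94.92% to Cyp3a44. Cyp3a41a and Cyp3a41b differed at 2 of 1515 coding bases. Cyp3a13 stood apart, with 75.45% to 77.14% identity to the 8 other genes.

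**Figure D1:**
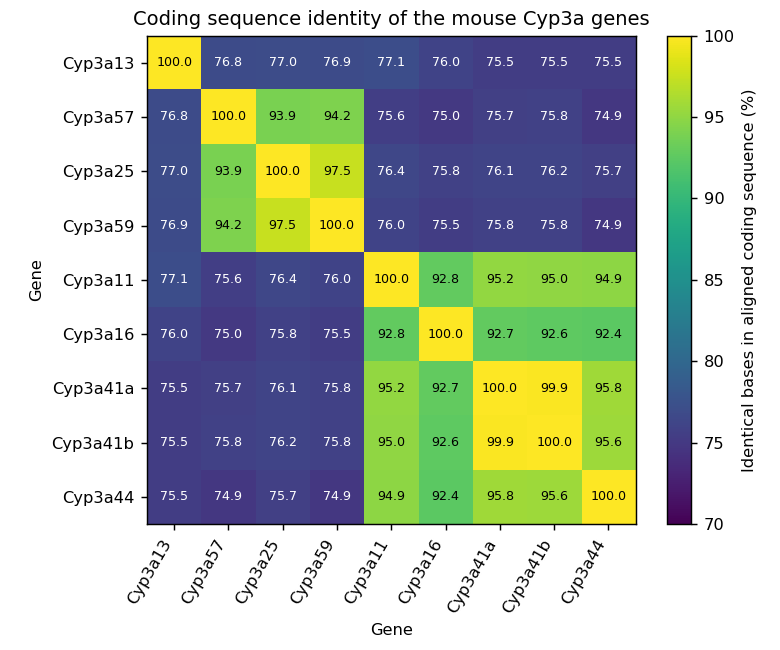
Identity of the coding sequences of the 9 mouse Cyp3a genes, in percent of aligned bases, for each pair of genes (colour and printed value). Cyp3a25, Cyp3a59 and Cyp3a57 form one block of high identity, Cyp3a11, Cyp3a16, Cyp3a41a, Cyp3a41b and Cyp3a44 another, and Cyp3a13 reaches at most 77.14% with any other gene.

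In GENCODE M21 (GRCm38) all 9 are protein-coding genes of chromosome 5, and none shares exon bases with a gene of another name. A cluster of 8 genes spans positions 145345279 to 146113287, over 0.768 Mb, and Cyp3a13 lies outside it at 137892932 to 137921619, 7.42 Mb away. Within the cluster Cyp3a11 occupies 145854426 to 145879964, Cyp3a25 occupies 145977194 to 146009618 and Cyp3a59 occupies 146079257 to 146113287. Of the 2857 windows of 100 bases in the Cyp3a13 transcript, none occurs in a transcript of another gene. For Cyp3a11 99.7% of windows are unique, for Cyp3a16 99.9%, for Cyp3a44 94.6%, for Cyp3a59 94.4% and for Cyp3a25 94%. For Cyp3a41a the share is 9.18%, and 1781 of its 1961 windows also occur in other genes, Cyp3a41b among them. Values of Cyp3a25, Cyp3a59 and Cyp3a44 are therefore less certain than those of Cyp3a13, and those of Cyp3a41a and Cyp3a41b cannot be told apart by most fragments.

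Of the 7 genes, 4 reached a mean of 1 FPKM over the 6 libraries and were tested, and 3 did not. The order of levels was Cyp3a11, Cyp3a25, Cyp3a13 and Cyp3a59 in all 6 libraries. On the FPKM scale and over all libraries, Cyp3a11 was 2.45-fold above Cyp3a25, Cyp3a25 was 7.25-fold above Cyp3a13, and Cyp3a13 was 2.93-fold above Cyp3a59. Cyp3a11 ranked between 63 and 101 among all genes of the table and between 2 and 5 among the cytochrome P450 (Cyp) genes, depending on the library. Cyp3a25 ranked between 9 and 12 among the Cyp genes, Cyp3a13 between 29 and 34, and Cyp3a59 at 42 or 43. The male livers thus carried mainly Cyp3a11 and Cyp3a25 among the family, and the neighbouring positions in this order were separated in every library.

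**Figure D2:**
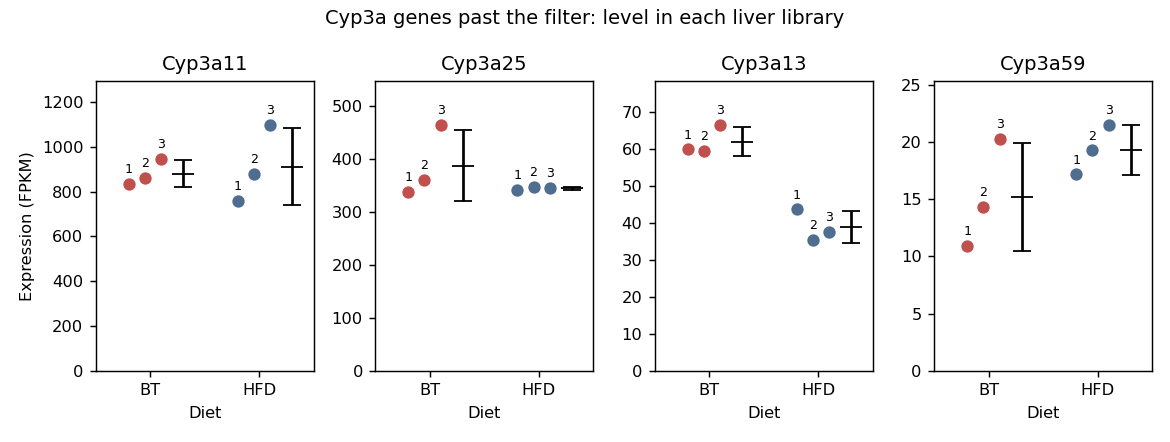
Expression in FPKM (vertical axes, each starting at 0) of the 4 Cyp3a genes past the filter in BT and HFD liver libraries. Points are single libraries labelled with their replicate number, and the bar beside them gives the mean ± SD (n = 3). Only for Cyp3a13 do the BT points, 59.5 to 66.5 FPKM, all lie above the HFD points, 35.4 to 43.7 FPKM.

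Cyp3a13 rose with BT. It stood at 59.97, 59.48 and 66.52 FPKM in BT livers, against 43.7, 35.4 and 37.6 FPKM in HFD livers. The 3 BT values are close together and all lie above the HFD values, of which replicate 1 is the highest. The means were 62.0 ± 3.93 FPKM in BT and 38.9 ± 4.30 FPKM in HFD (SD, n = 3 each), a ratio of 1.59. On the log2(FPKM + 1) scale the change was 0.66 ± 0.11 (SE), with a 95% interval of 0.41 to 0.92 and adjusted p = 0.0129 by limma, with Benjamini-Hochberg correction across the 10476 genes that entered the test. Across all genes tested 13.3% passed this threshold in either direction, 6.01% higher and 7.33% lower with BT, and 39.3% had BT and HFD values that did not overlap, so a change of this kind was common in these livers. Without BT replicate 1 the change was 0.68 and missed the threshold (adjusted p = 0.0570). A higher level per cell and a larger share of cells that express the gene cannot be told apart in whole tissue.

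Cyp3a11 did not pass the test. It stood at 833, 863 and 948 FPKM in BT livers, against 760, 880 and 1097 FPKM in HFD livers. The lowest and the highest of the 6 values are both HFD libraries, so the BT range lies inside the HFD range. The means were 881 ± 59.7 FPKM in BT and 912 ± 171 FPKM in HFD (SD, n = 3 each). The difference was -0.04 ± 0.15 (SE, adjusted p = 0.886), with a 95% interval of -0.38 to 0.30 on the log2(FPKM + 1) scale. Its sign depended on the setting, at 0.06 after TPM rescaling, 0.11 when HFD replicate 3 was left out and 0.00 when BT replicate 1 was left out. HFD replicate 3 also lists Alb and mt-Co1 at 0, which in the other 5 libraries are among the most abundant RNAs, so a 0 in the table can be a failed estimate. TPM rescaling divides by the summed FPKM of a library, and in HFD replicate 3 that sum holds no Alb or mt-Co1.

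Cyp3a25, an enzyme of liver and intestine, did not pass either. It stood at 338, 360 and 463 FPKM in BT livers, against 341, 348 and 345 FPKM in HFD livers. The HFD values are nearly equal, and BT replicate 3 alone stands well above them. The difference was 0.15 ± 0.13 (SE, adjusted p = 0.445), with a 95% interval of -0.15 to 0.46. Without BT replicate 3 it was 0.02, and among the scalings it ran from 0.08 with median-of-ratios to 0.37 with quantile normalization (adjusted p = 0.0726).

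Cyp3a59, the near copy of Cyp3a25, had values that overlapped between the diets. It stood at 10.9, 14.3 and 20.2 FPKM in BT livers, against 17.2, 19.3 and 21.5 FPKM in HFD livers. BT replicates 1 and 2 lie below all HFD libraries, and BT replicate 3 lies among them. The difference was -0.36 ± 0.20 (SE, adjusted p = 0.237), with a 95% interval of -0.82 to 0.09. Without BT replicate 3 it was -0.58 (adjusted p = 0.0714), and without BT replicate 1 it was -0.16.

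The 3 members below the filter were near the limit of counting. From the smallest values in the table, 1 fragment of Cyp3a44 is worth 0.0322 to 0.0370 FPKM and 1 of Cyp3a16 is worth 0.0365 to 0.0420 FPKM, by a rough estimate. Cyp3a44 stood at 0.218, 0.145 and 0.236 FPKM in BT livers, against 0.0675, 0 and 0.104 FPKM in HFD livers. These correspond to about 6.18, 4.30 and 6.49 fragments with BT and 2.1, 0 and 3.17 with HFD, so the groups do not overlap but rest on a handful of fragments each. Cyp3a16 stood at 0, 0.0867 and 0.0937 FPKM in BT livers, against 0, 0.0932 and 0.165 FPKM in HFD livers, which overlap. Cyp3a11, the most abundant member, shares 7 of its 2245 windows with Cyp3a16 or Cyp3a44. Whether fragments of Cyp3a11 add to the values of Cyp3a16 and Cyp3a44 was not tested. Cyp3a41a is listed at 0 in all 6 libraries, as is its near copy Cyp3a41b. No absence was read from these zeros, since 90.8% of Cyp3a41a windows are shared with other genes and how such fragments were assigned is not given in the sources used here. Cyp3a57, which is not among the 7, reached at most 0.0512 FPKM in BT livers and 0.221 FPKM in HFD livers.

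**Figure D3:**
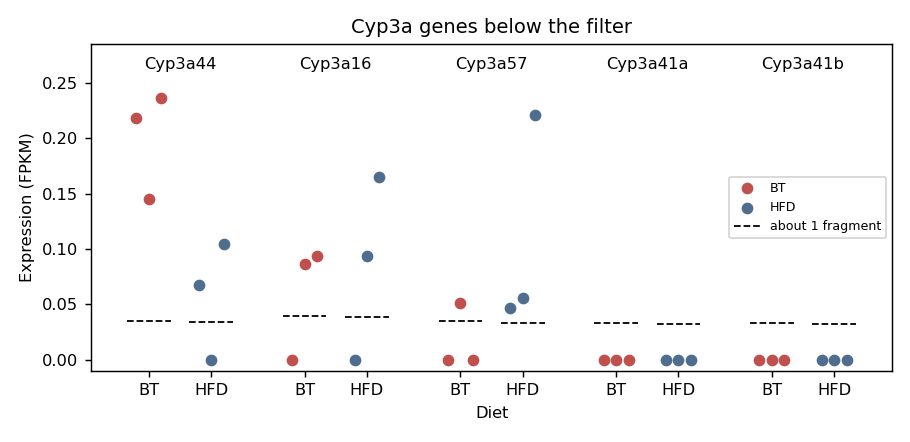
Expression in FPKM of the Cyp3a genes below the filter in BT and HFD liver libraries, 1 point per library. Dashed lines give the estimated worth of 1 fragment. The Cyp3a44 points of BT, 0.145 to 0.236 FPKM, lie above those of HFD, 0 to 0.104 FPKM, and Cyp3a41a and Cyp3a41b are listed at 0 throughout.

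Summed over the 7 genes, Cyp3a expression came to 1242, 1296 and 1498 FPKM in BT livers, against 1161, 1283 and 1501 FPKM in HFD livers. The ranges overlap almost fully, with means of 1345 ± 135 FPKM in BT and 1315 ± 172 FPKM in HFD (SD, n = 3 each). Within this sum Cyp3a11 supplied 65.6 ± 2.07% with BT and 69.0 ± 3.85% with HFD, and Cyp3a25 supplied 28.6 ± 2.02% with BT and 26.5 ± 3.24% with HFD (SD, n = 3 each). Cyp3a13 supplied 4.62 ± 0.197% with BT and 3.01 ± 0.664% with HFD. Cyp3a11 and Cyp3a25 thus made up most of the family's RNA under both diets. The summed level of the 91 other Cyp genes did separate the diets, at 18267 to 19491 FPKM in BT livers and 12973 to 16434 FPKM in HFD livers. Much of this sum was Cyp2e1, at 8947 to 9411 FPKM in BT livers and 5761 to 7481 FPKM in HFD livers. Cyp2e1 itself did not pass by limma (adjusted p = 0.0501). Among the 54 other Cyp genes tested, 32 changes were positive and 22 negative. The 7 genes made up 6.10% to 7.58% of all Cyp expression with BT and 6.60% to 10.4% with HFD.

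Ratios within a library do not depend on how libraries are scaled. Cyp3a13 amounted to 7.20%, 6.90% and 7.02% of the Cyp3a11 level in BT livers, against 5.75%, 4.02% and 3.43% in HFD livers. The mean log2 ratio was higher with BT by 0.71, and the groups did not overlap. The ratio of Cyp3a13 to Cyp3a25 was also higher with BT, without overlap, by 0.52, and that of Cyp3a13 to Cyp3a59 by 1.06. Cyp3a59 amounted to 3.23%, 3.99% and 4.37% of the Cyp3a25 level in BT livers, against 5.04%, 5.54% and 6.23% in HFD livers, a log2 difference of -0.54 with no overlap, for a pair of near copies that can share fragments. These 4 of the 6 pairs compared reached p = 0.1 in two-sided exact permutation tests, the smallest that 3 against 3 libraries can give (0.15 with Benjamini-Hochberg adjustment over the 6 pairs), so none can pass 0.05. The other pairs overlapped, with a difference of 0.19 for Cyp3a25 over Cyp3a11 (exact permutation p = 0.4) and -0.35 for Cyp3a59 over Cyp3a11 (exact permutation p = 0.2).

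**Figure D4:**
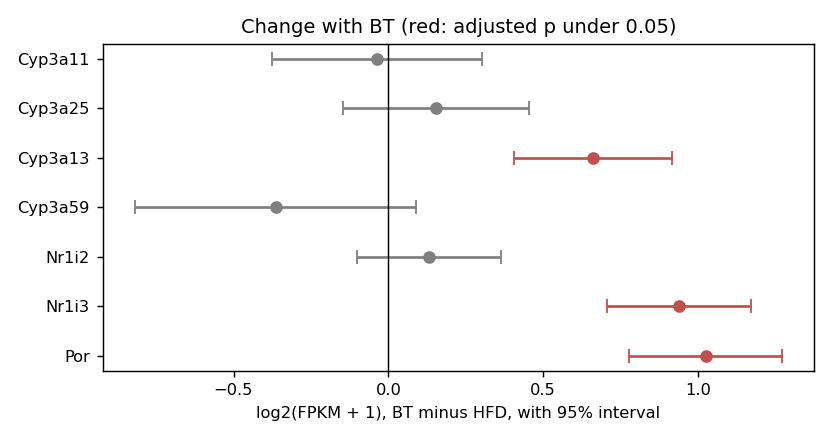
Change in log2(FPKM + 1), BT minus HFD, with its 95% interval from limma (horizontal axis) for the 4 tested Cyp3a genes, the receptor genes Nr1i2 and Nr1i3 and the reductase gene Por. Cyp3a13 at 0.66, Nr1i3 at 0.94 and Por at 1.03 passed the threshold, and the intervals of Cyp3a11, Cyp3a25, Cyp3a59 and Nr1i2 include 0.

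The start regions of the genes are shown because the member that rose lies outside the cluster, so that its promoter can be set beside those of the cluster genes. Each window runs from 250 bases before to 50 bases after the RefSeq start (GRCm38.p6) and is written 5′ to 3′ along the gene. Capitals mark TATATAA on the gene strand and the hexamers AGGTCA and AGTTCA on either strand (TGACCT and TGAACT in reverse), the kind of element that nuclear receptors such as PXR and CAR bind.
Cyp3a13 promoter, chr5:137921570-137921869, minus strand: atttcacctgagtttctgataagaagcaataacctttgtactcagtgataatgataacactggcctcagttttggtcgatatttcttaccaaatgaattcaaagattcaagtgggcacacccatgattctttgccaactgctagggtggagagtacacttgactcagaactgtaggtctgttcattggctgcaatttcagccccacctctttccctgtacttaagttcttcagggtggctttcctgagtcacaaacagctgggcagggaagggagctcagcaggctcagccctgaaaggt
Cyp3a11 promoter, chr5:145879805-145880104, minus strand: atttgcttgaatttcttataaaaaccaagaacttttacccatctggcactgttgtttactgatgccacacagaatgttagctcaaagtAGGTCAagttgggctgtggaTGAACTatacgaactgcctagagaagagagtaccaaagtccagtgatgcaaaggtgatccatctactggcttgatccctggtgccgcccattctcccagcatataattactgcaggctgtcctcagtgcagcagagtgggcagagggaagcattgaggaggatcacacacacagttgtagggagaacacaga
Cyp3a41a promoter, chr5:145720087-145720386, minus strand: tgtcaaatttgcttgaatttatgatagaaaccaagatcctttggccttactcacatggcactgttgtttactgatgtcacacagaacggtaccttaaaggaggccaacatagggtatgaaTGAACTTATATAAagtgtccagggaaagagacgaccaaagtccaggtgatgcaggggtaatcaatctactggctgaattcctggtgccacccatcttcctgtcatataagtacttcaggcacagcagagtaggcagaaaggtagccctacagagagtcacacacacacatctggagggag
Cyp3a25 promoter, chr5:146009569-146009868, minus strand: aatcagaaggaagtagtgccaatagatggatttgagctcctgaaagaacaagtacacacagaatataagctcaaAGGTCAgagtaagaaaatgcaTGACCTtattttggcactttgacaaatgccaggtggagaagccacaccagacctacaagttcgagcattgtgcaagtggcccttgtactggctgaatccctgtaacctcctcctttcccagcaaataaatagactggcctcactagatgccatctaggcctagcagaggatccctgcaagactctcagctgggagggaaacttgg
Cyp3a59 promoter, chr5:146079008-146079307, plus strand: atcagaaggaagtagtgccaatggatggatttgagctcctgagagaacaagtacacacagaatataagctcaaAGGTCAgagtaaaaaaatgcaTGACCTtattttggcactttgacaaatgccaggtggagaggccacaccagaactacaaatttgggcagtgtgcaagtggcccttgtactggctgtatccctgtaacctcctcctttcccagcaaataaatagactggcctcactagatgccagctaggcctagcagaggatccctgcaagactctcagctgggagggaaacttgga
All 9 genes matched the promoter table by symbol. Cyp3a11 holds 1 AGGTCA and 1 AGTTCA, and Cyp3a25 and Cyp3a59 hold AGGTCA in 2 places each. Cyp3a13 holds neither hexamer in this window, and nor does Cyp3a16, a gene of the cluster. Of 32851 RefSeq windows of this length 16.3% hold AGGTCA and 14% hold AGTTCA, so the matches are common ones. TATATAA occurs in Cyp3a16, Cyp3a41a, Cyp3a41b and Cyp3a44 at 124 to 128 bases before the start. At any position, it occurs in 2.20% of all windows. It is not in the 4 genes with higher levels, nor in Cyp3a57, which was also low. The windows of the genes with TATATAA are near copies, 94.3% to 99.66% identical to each other. An everted pair of AGTTCA hexamers with 6 bases between them (ER6), a known form of PXR element, occurs in 0.00609% of all windows and in none of the 9 genes. Direct pairs with a shorter gap were also searched. They occur in at most 0.00304% of all windows and were not found in the 9 genes. Only exact letters were searched, and ER6 pairs that hold the other hexamer were not. Pairs this rare would be missed in almost any 9 windows, so no absence of PXR elements was read from these searches. The windows of Cyp3a25 and Cyp3a59 are 96.33% identical although Cyp3a25 stood 21.2-fold above Cyp3a59 in FPKM, whereas that of Cyp3a13 is 64.04% to 67.98% identical to the others, much as Cyp3a25 is to Cyp3a11 (66.04%). A match or its absence describes these letters and no factor was measured.

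Of the receptors that control Cyp3a genes, Nr1i2 (PXR) did not pass and Nr1i3 (CAR) rose. Nr1i2 stood at 34.9, 41.3 and 39.6 FPKM in BT livers, against 33.8, 35.5 and 36.0 FPKM in HFD livers, a difference of 0.13 ± 0.10 (SE, adjusted p = 0.403). Nr1i3 stood at 493, 547 and 545 FPKM in BT livers, against 260, 283 and 282 FPKM in HFD livers, a change of 0.94 ± 0.10 (SE, adjusted p = 0.00351). It passed whichever of the 6 libraries was left out, but exons of Tomm40l cover 74.9% of its exon bases, which makes its level uncertain. Of 20 receptors and partner factors 18 were tested, 3 rose and 1 fell (22.2%, against 13.3% of all genes tested), with a median change of 0.20 against 0.07 over all genes tested. Their number, 4 in all, was 2 without any one of the BT replicates or with length and GC trends removed, and 7 with a filter of 5 FPKM. Among these were the coactivator Ncoa2 (0.62, adjusted p = 0.0346), which was higher, and the liver factor Cebpa (-0.46, adjusted p = 0.0191), which was lower. Both missed the threshold when BT replicate 2 was left out, Cebpa also without BT replicate 1 or 3, and Ncoa2 in every such fit but that without HFD replicate 3, with adjusted p of up to 0.0821 for Cebpa and 0.115 for Ncoa2. With length and GC trends removed Ncoa2 was 0.36 (adjusted p = 0.0573) and Cebpa -0.32 (adjusted p = 0.0723), and Ncoa2 also missed with no filter (adjusted p = 0.0827) and Cebpa with TPM rescaling (adjusted p = 0.0529).

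Among 14 genes of electron transfer and heme synthesis, which P450 enzymes need, 2 rose and none fell (14.3%, near the 13.3% of all genes tested), with a median of -0.06. Por, the reductase, stood at 259, 284 and 230 FPKM in BT livers, against 125, 122 and 129 FPKM in HFD livers, a ratio of 2.05 (adjusted p = 0.00306), and passed whichever library was left out. Alas1, the first enzyme of heme synthesis, rose by 0.84 (adjusted p = 0.0458) but stayed past the threshold only when BT replicate 3 was the library left out (adjusted p of up to 0.139 otherwise). It also missed with no filter, median-of-ratios scaling, no variance trend, or length and GC trends removed (adjusted p between 0.0505 and 0.114). Other PXR and CAR targets moved in both directions: of 25 tested, 6 were higher and 5 lower (44%, against 13.3% of all genes tested), with a median of 0.05. The number called, 11, was 3 with no filter. It was 2 when BT replicate 1 was left out, 4 for BT replicate 2 or HFD replicate 2, 6 for BT replicate 3 and 16 for HFD replicate 1. Those higher were Cyp2a5, Abcc2, Abcb1a, Cyp2c54, Cyp2c50 and Cyp2c37, by 0.56 to 1.68, and among those lower were Gstm2 (-1.17), Gstm3 (-1.79), Gstm1 (-1.05) and Cyp2b9 (-2.04). Several of these genes have close paralogs, which can share fragments. The Gstm genes encode glutathione transferases, and Gstm2 and Gstm3 passed whichever library was left out, whereas Gstm1 missed without BT replicate 1 (adjusted p = 0.0599). Gstm2 and Gstm3 were the 2 left in that fit, so the 6 genes named as higher all missed it.

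Set among the cytochromes P450, 1 of 4 tested Cyp3a genes rose and none fell (25%). Of 54 other Cyp genes tested 10 rose and 5 fell (27.8% in either direction, against 13.3% of all genes tested). The median change was 0.06 for the 4 Cyp3a genes and 0.13 for the other Cyp genes, against 0.07 over all genes tested. In steroid and bile acid metabolism, where Cyp3a enzymes hydroxylate the same compounds, 3 of 25 genes rose and 2 fell (20%, against 13.3% of all genes tested), with a median of 0.21. The number called, 5, was 2 with no filter. With HFD replicate 1 left out it was 12, with BT replicate 2 left out it was 1, and with BT replicate 1 left out it was 0. Hsd3b2, a hydroxysteroid dehydrogenase, rose by 0.86, and Akr1d1, a steroid reductase, by 0.58, while Cyp17a1, a steroid hydroxylase and lyase, fell by 1.44 and Cyp8b1, a bile acid hydroxylase, by 0.44. All of these missed the threshold when BT replicate 1 was left out, Hsd3b2 and Akr1d1 also without BT replicate 2, and Cyp8b1 in every such fit but that without HFD replicate 3. Their adjusted p then reached 0.0634 for Cyp17a1, 0.0652 for Hsd3b2, 0.0798 for Akr1d1 and 0.129 for Cyp8b1. Cyp17a1 also missed with no filter (adjusted p = 0.0508), and Cyp8b1 with no filter, TPM rescaling, quantile normalization, or length and GC trends removed (adjusted p between 0.0651 and 0.0946).

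**Figure D5:**
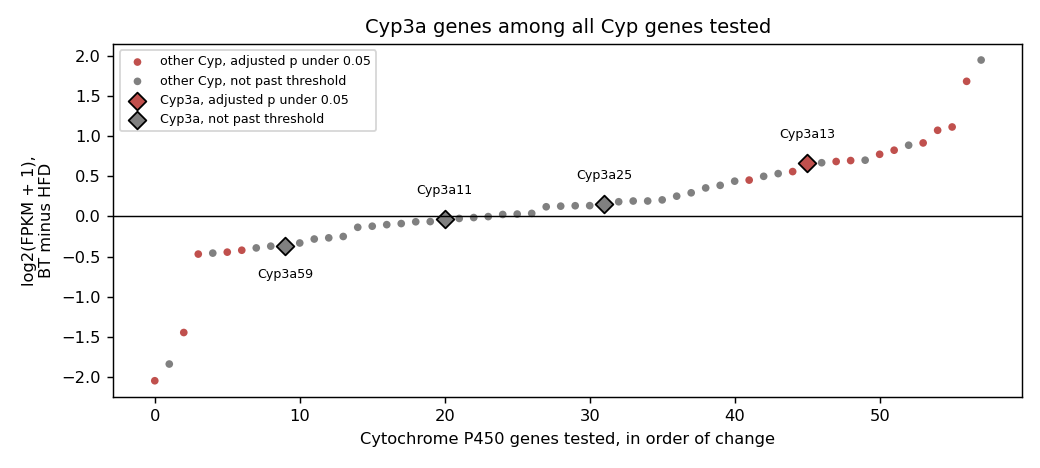
Change in log2(FPKM + 1), BT minus HFD (vertical axis), of all 58 Cyp genes tested, in order of change (horizontal axis). Diamonds are the 4 Cyp3a genes, from -0.36 for Cyp3a59 to 0.66 for Cyp3a13, and red marks an adjusted p under 0.05.

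Because Cyp3a16, Cyp3a41a and Cyp3a44 are known for female or newborn liver, genes of those states were counted as well. Of 12 tested genes with female bias in mouse liver, 3 fell and 1 rose (33.3%, against 13.3% of all genes tested), with a median of -0.19. Those that fell were Cyp17a1, Cyp2b9 and Slc22a27. Cyp2b9 stood at 13.0, 25.1 and 26.9 FPKM in BT livers, against 50.5, 103 and 132 FPKM in HFD livers, and Slc22a27, a solute carrier, changed by -1.12 (adjusted p = 0.0492). Acot3, an acyl-CoA thioesterase, was the member that rose (0.73). Of 24 tested genes with male bias 4 rose and none fell (16.7%, near the 13.3% of all genes tested), with a median of 0.53, namely the fatty acid hydroxylase Cyp4a12a (0.82), Ugt2b1 (0.80) and the complement genes C6 (0.90) and C8a (0.48). The number of male-biased genes called, 4, was 1 with median-of-ratios scaling, no variance trend, or length and GC trends removed, and 0 with no filter. It was 0 when BT replicate 1 or 2 was left out, 1 for BT replicate 3 or HFD replicate 2, 2 for HFD replicate 3 and 9 for HFD replicate 1. The number of female-biased genes called, also 4, was 1 with no filter and 2 without HFD replicate 2. Slc22a27 missed in 7 settings that kept all libraries, with adjusted p of 0.0529 to 0.125. When BT replicate 1 was left out, every gene named here missed the threshold. Cyp2b9 also missed without HFD replicate 2, Cyp4a12a without BT replicate 2 or 3, and Slc22a27, Ugt2b1, C6 and C8a in every such fit but that without HFD replicate 1, with adjusted p from 0.0580 for Cyp2b9 up to 0.170 for C8a. Of 6 genes of newborn liver in the table, 1 was tested and did not pass by limma (0 at an unadjusted p under 0.05, which 32.4% of all genes tested reached). The number called, 0, was 1 when HFD replicate 1 was left out. The fetal marker Afp was at most 0.513 FPKM in BT livers and 0.729 FPKM in HFD livers.

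Cyp3a11 is a gene of the hepatocytes around the central vein, and genes of that zone had 2 of 15 higher and 1 lower. This is 20%, against 13.3% of all genes tested, with a median of 0.31 against 0.07. Nr1i3, whose level is uncertain, is among those higher. Of 15 genes of the portal zone 1 was higher and 1 lower (13.3%, as over all genes tested), with a median of -0.02. All 10 hepatocyte markers were at or above the filter. Of these 1, the transthyretin gene Ttr, was lower with BT (10%, against 13.3% of all genes tested). No lymphocyte marker reached the filter. Of the pancreas markers Cela1 alone was tested and was lower (-0.67). Stellate cell markers had 2 of 8 lower and none higher (25%, against 13.3% of all genes tested). Their summed levels were 73.0 to 98.4 FPKM in BT livers and 102 to 167 FPKM in HFD livers. The part of this difference in the Cyp3a values was not tested. Kupffer cell and endothelial markers had none of 9 and none of 8 past the threshold by limma (3 and 1 at an unadjusted p under 0.05), with summed levels that overlapped between the diets. The same held for the 1 cholangiocyte, 5 erythroid and 1 adipose markers tested (0, 0 and 0 at an unadjusted p under 0.05). For Cyp3a13, which is also expressed in intestine, the intestinal markers Fabp2, Sis, Cdx1, Cdx2 and Alpi are listed at 0 in all 6 libraries. So are the stellate cell marker Lrat and the endothelial marker Clec4g, and no absence was read from any of these zeros. Of the 10 intestinal markers 2 were tested and none passed by limma (2 at an unadjusted p under 0.05), both with lower means in BT livers. Their summed level, most of it Apoa4, which liver also makes, was 249 to 497 FPKM in BT livers and 369 to 1124 FPKM in HFD livers.

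Neighbours on the chromosome were counted after the values were seen. Of 13 tested genes within 250 kb of Cyp3a13 none passed by limma (4, or 30.8%, at an unadjusted p under 0.05, against 32.4% of all genes tested), with a median of -0.08. The BT and HFD values of 3 of the 13 did not overlap, as was so for 39.3% of all genes tested. Around the cluster, with the Cyp3a genes left out, 2 of 13 were higher and 1 lower (23.1%, against 13.3% of all genes tested). The values of 7 of these did not overlap. The genes whose values over the 6 libraries were most like Cyp3a13 in log2(FPKM + 1) were C77080, the carboxypeptidase N subunit gene Cpn2 and the immunoglobulin receptor gene Pigr, with Pearson r of 0.995, 0.995 and 0.994. Those most like Cyp3a11 were Luzp1 (0.994), Tmem87a (0.988) and Aldh1b1 (0.986), and those most like Cyp3a25 were Ifrd2 (0.995), Bid (0.991) and Ambra1 (0.990). For Cyp3a59 they were Tmed5 (0.995), Vegfc (0.990) and Cdc42se1 (0.988). These are descriptions over 6 libraries that share 2 diets, picked as the highest among all genes tested.

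As to the whole series, 1398 of 10476 genes tested passed, 630 higher and 768 lower with BT, and the balance depended on the setting. Median-of-ratios scaling gave 448 higher and 884 lower, TPM rescaling 614 higher and 557 lower, and the fit without HFD replicate 3 gave 855 higher and 681 lower. The TPM result carries the limit that Alb and mt-Co1 are missing from the sum of HFD replicate 3. Leaving out BT replicate 1 left 173, BT replicate 2 gave 324 when left out, BT replicate 3 gave 589 and HFD replicate 2 gave 621. Depth was estimated at 13.8 to 15.8 M (mega) fragments per library. The codes in the sample descriptions carry 1 letter in all BT libraries and another in all HFD libraries. What the letter marks is not stated, and it cannot be told apart from diet.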

How the data were processed

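Liver mRNA libraries (TruSeq, per the labels' protocols) were deposited as a table of FPKM, made by the authors, with 1 column for each of 6 libraries. CASAVA 1.8.2, STAR 2.4.0 and Cufflinks 2.1.1 are named in the submitters' processing notes, without roles. For the genome build, the annotation and the strand setting, the sources used here name none. Names and positions came from GENCODE M21 (GRCm38), which named 22671 of 23474 identifiers, and promoters from RefSeq (GRCm38.p6). The authors' build may differ.

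The 10476 genes whose mean over the libraries reached 1 FPKM were tested as log2(FPKM + 1), a scale that understates changes of low genes, with limma 3.58.1 in R 4.3.3 (variance trend, two-sided, Benjamini-Hochberg over all genes tested, threshold 0.05, 4 residual degrees of freedom). Changes are BT minus HFD. The test was checked on simulated data with independent noise for each gene, which holds no shift of a whole library. Depth was estimated from FPKM times length in kilobases of genes with 1 transcript over 1000 bases, as the inverse of the median of values between 0.03 and 0.1. No 2 libraries were identical. Coding sequences were aligned globally with Biopython 1.88, and figures were drawn with matplotlib 3.10.9.

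The members and lists were chosen with earlier results of these data known. The text names all members, up to 4 called genes with the smallest adjusted p in each list, Nr1i2, Nr1i3 and Por, and the 3 genes most like each tested member; 1 gene that this rule names is not reported here. Cyp2a5, Abcc2, Abcb1a, Cyp2c54, Cyp2c50, Cyp2c37 and the cell markers named were added after their values were seen. Alternatives were other pseudocounts (0.1), filters (none, 5 FPKM), scalings, variance models, library weights, a replicate block, removal of length and GC trends (splines with 5 degrees of freedom) and leaving out each library.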

Additional observations from a re-analysis of the deposited data

How the results depend on the processing

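The rise of Cyp3a13 kept its direction in all 17 alternatives, and its adjusted p stayed under 0.05 in all but the fit without BT replicate 1 (0.0570). Leaving out 1 library gave changes of 0.60 to 0.75 for it, -0.16 to 0.11 for Cyp3a11, 0.02 to 0.25 for Cyp3a25 and -0.58 to -0.16 for Cyp3a59, and 0 to 1 of the members called. Cyp3a11 changed sign with TPM rescaling (0.0562). No setting brought Cyp3a11, Cyp3a25 or Cyp3a59 past the threshold. All genes called numbered 545 with no filter, which adds 6619 low genes to the test, and 173 to 1536 with 1 library left out. Genes called over the gene lists numbered 31, against 11 with no filter, 56 with a replicate block and 5 to 52 with 1 library left out; the cause was not tested. Same-numbered BT and HFD libraries deviated together with correlations of 0.163, 0.097 and 0.147, and each library correlated best with its own number, but not every value was over 0.1 and no label says that numbers pair libraries. With the replicate block 1808 genes were called, against 1398 without it, and Cyp3a13 still passed (adjusted p = 0.0124), as the only member. The block raised the count to 12 for male-biased genes (4 without it), 12 for steroid and bile acid enzymes (5 without it) and 7 for receptors and partners (4 without it). The difference in summed Cyp3a FPKM, 30.5, ran from -46.2 to 123 with 1 library left out, within 1 SD of the libraries throughout. Of 357 refits of 21 context genes, 270 kept direction and side of the threshold and 87 kept direction only. Depth limits the 3 genes below the filter, whose values rest on 0 to 6.49 estimated fragments.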
